A study of Mus musculus with 3 samples.

Results

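Hepatocyte nuclei of mice on a steatosis-inducing diet with the nucleoside drug Aza-TdC were compared with hepatocyte nuclei of mice on a standard diet by single-nucleus RNA sequencing of frozen liver. A nucleus was taken as a hepatocyte if it held at least 1546 UMIs (unique molecular identifiers, each marking 1 captured RNA), at most 5% mitochondrial UMIs and at most 2 UMIs summed over 9 genes that mark other liver cells (Stab2, Ptprb, Clec4f, Cd5l, Adgre1, Reln, Ntm, Skap1 and Gpm6a). This gave 6784 of 7598 barcodes in the Aza-TdC library and 6837 of 7139 in the standard diet (SD) library, or 13621 nuclei of the 21665 barcodes in the series. All mice were male C57BL/6N, 8 weeks old when the diets began. The SD group ate standard chow. The other groups were fed for 18 weeks on a fatty liver diet, named for metabolic dysfunction-associated steatotic liver disease (MASLD), with a sugar drink, which the labels call a sucrose solution but list as 18.9 g/L glucose and 23.1 g/L fructose. The Aza-TdC group also received 5-aza-4′-thio-2′-deoxycytidine by gavage, 2 mg/kg every day from week 14 to week 18. The MASLD library, the diet without the drug, is given beside the others as a further reference. Each library was made from 120 mg of tissue. How many animals each library holds is not stated in the sources used here. Each group had 1 library, so no difference between groups could be tested. Aza-TdC and SD differ in both diet and drug, which cannot be told apart in this comparison.

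Hepatocytes store and burn fat, make glucose, bile acids and most plasma proteins, and clear drugs and ammonia, and they divide these tasks along the lobule from the portal field to the central vein. In steatotic liver disease they fill with triglyceride droplets, and fatty acid sensing receptors such as PPARA and PPARG raise the genes of fat oxidation and storage. Aza-TdC is a deoxycytidine analogue that is built into DNA and traps the maintenance DNA methyltransferase DNMT1. Drugs of this class are known for loss of DNA methylation and for switching on interferon genes in cultured tumour cells.

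The hepatocyte label held in both libraries. The 16 hepatocyte markers together made up 27106 CPM (UMIs per 1000000 UMIs) in SD and 27923 CPM in Aza-TdC, and Alb alone 6023 and 6643 CPM. Hepatocyte nuclei had a median of 5912 UMIs in SD and 6766.5 in Aza-TdC, and, with every nucleus thinned to 1546 UMIs, a median of 1043 and 1073 detected genes. Median mitochondrial shares were 0.124% and 0.0816%. The libraries were not cut alike, since the smallest barcode held 1546 UMIs in SD and 500 in Aza-TdC. At the limit of 2 marker UMIs stood 211 SD and 118 Aza-TdC nuclei, and 56 and 45 barcodes lay just outside it with 3. The 2 libraries shared 8 barcodes. Markers of other cells were scarce in the chosen nuclei. Of 11 measured macrophage markers 9 were at least 2-fold higher in Aza-TdC and 1 lower, with a median log2 ratio of 2.10. Over all measured genes 8.53% were that much higher. The 9 include Clec4f, Cd5l and Adgre1, whose UMIs the selection rule limited, so this count and median draw partly on the rule. All 14 listed macrophage markers summed to 12.8 CPM in SD and 34.6 CPM in Aza-TdC. The 11 macrophage markers outside the selection rule, measured or not, summed to 10.6 and 19.2 CPM. Likewise outside the rule, the 10 sinusoidal endothelial markers summed to 10.4 and 10.9 CPM and the 10 stellate markers to 14.9 and 17.2 CPM. With Reln and Ntm included, all 12 listed stellate markers went the other way, at 35.27 CPM in SD and 19.02 CPM in Aza-TdC. Of 8 measured stellate markers 1 was higher (Lrat) and 2 were lower (Reln and Ntm), whose UMIs the rule limited. All 12 listed endothelial markers summed to 19.05 and 16.82 CPM. The 11 lymphocyte markers outside the rule summed to 12.2 and 11.8 CPM. Of these, Nkg7 was at 0 in SD. The 9 cholangiocyte markers summed to 57.8 and 97.5 CPM, with Epcam at 0 in SD, the 7 mesothelial markers outside the rule to 3.49 and 6.73 CPM, and the 5 red cell genes to 38.5 and 60.2 CPM. The MASLD library, with 6032 chosen nuclei of 6928 barcodes, held more RNA of other-cell markers outside the rule than the other libraries. Its macrophage and lymphocyte markers outside the rule summed to 42.5 and 65.7 CPM, its cholangiocyte and red cell genes to 127 and 366 CPM. It had 202 barcodes over the mitochondrial limit, against 0 in SD and 7 in Aza-TdC. How far this enters MASLD levels of genes made by other cells was not tested. The macrophage total, higher in Aza-TdC than in SD, is set beside the immune genes below. There, nuclei with any macrophage UMI were also left out.

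UMIs were summed over the hepatocyte nuclei of a library and scaled to CPM, and each ratio is the log2 of Aza-TdC CPM over SD CPM with a 95% interval in brackets. These intervals cover counting error only and say nothing of the spread between animals. A gene was measured if it had at least 50 UMIs over both libraries, and it is called higher or lower below if its log2 ratio was at least 1 or at most -1. Of 14177 measured genes, 1209 were higher in Aza-TdC (8.53%) and 589 were lower (4.15%), so 12.7% lay past the 2-fold line in either direction. Each count of higher or lower genes on a list below is to be read beside these shares. The median log2 ratio of all measured genes was 0.05 (0.04 to 0.06), and 66.2% of them lay within 0.5 of 0. At 4-fold, 322 genes were higher and 119 lower, and at 8-fold 107 and 44. On a list of 30 genes coding for the mitochondrial respiratory chain, none passed the line and the median was -0.04. The median of 24 signs of nuclear and RNA quality was -0.09, again with none past the line.

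**Figure D1:**
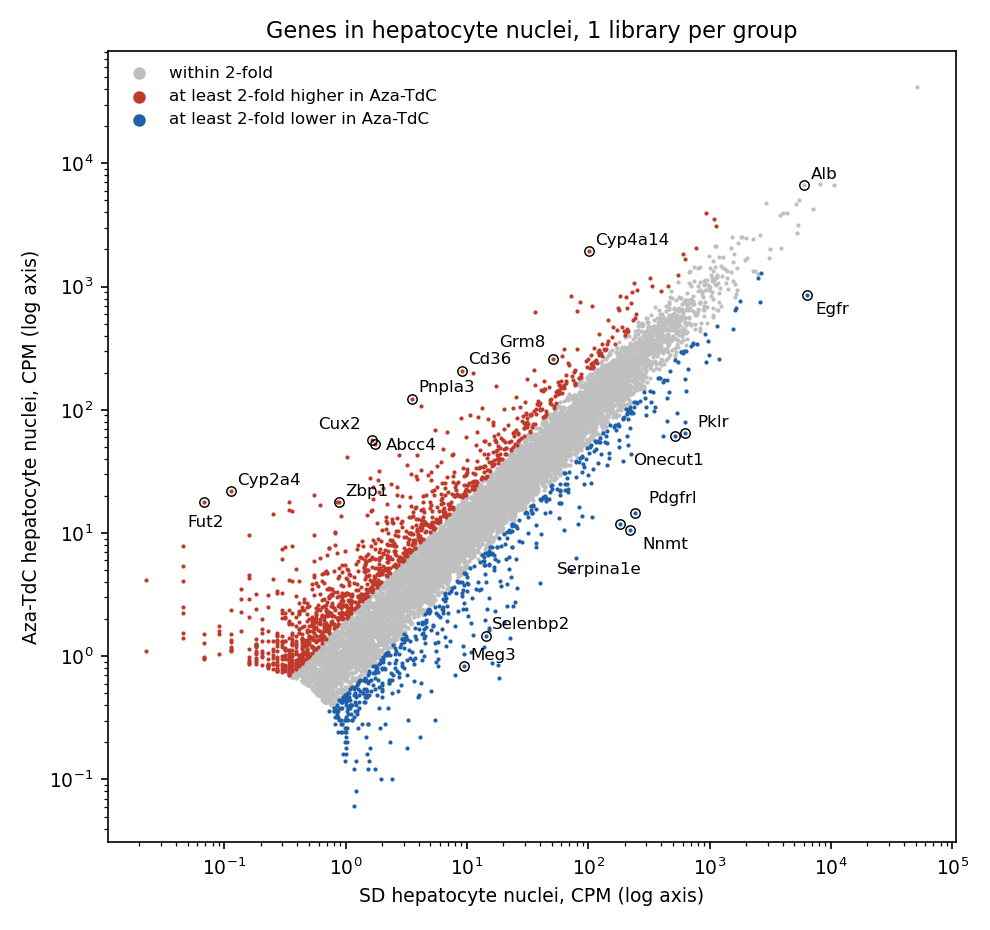
Each point is 1 gene in hepatocyte nuclei, with its CPM in SD on the horizontal axis and in Aza-TdC on the vertical axis, both log axes, for the 14176 measured genes with a UMI in both libraries. Red points are at least 2-fold higher in Aza-TdC (1209 genes) and blue points at least 2-fold lower (589 genes, less 1 with no UMI in Aza-TdC), and circled genes are described in the text.

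The enzymes that write, read and erase DNA methylation were mostly at like levels in both libraries. Dnmt1, which copies methylation onto newly made DNA, was at 7.72 CPM in SD, 9.11 in MASLD and 9.91 under Aza-TdC, a log2 ratio of 0.36 (0.16 to 0.56). The RNA level is no check of the drug, whose known action is on the DNMT1 protein. Dnmt3a, a methyltransferase of unmethylated sites, was at 133 CPM in SD and 112 in Aza-TdC, and Dnmt3b at 2.85 and 5.22. Uhrf1, the partner that brings DNMT1 to replicated DNA, had 7 UMIs in SD and 24 in Aza-TdC, too few to be measured. Tet2, which oxidizes methylcytosine, was at 68.7 and 90.5 CPM. Of 21 measured genes on this list 2 were higher and 1 was lower, with a median of 0.21 (-0.25 to 0.44). All 3 belonged to the Gadd45 family of stress-induced genes. Gadd45a was at 1.44 CPM in SD and 4.79 in Aza-TdC, and Gadd45b at 2.96 and 6.93. Gadd45g was lower, at 109 CPM in SD, 48.1 in MASLD and 32.8 under Aza-TdC.

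Genes that take up and process deoxycytidine analogues also differed little, with 1 of 20 higher and 1 lower. Cda, the deaminase that inactivates cytidine analogues, was at 29.4 CPM in SD, 60.7 in MASLD and 71.5 under Aza-TdC, a log2 ratio of 1.28 (1.19 to 1.37). Dck, the kinase that activates them, was at 3.44, 6.82 and 4.67 CPM, a log2 ratio of 0.44 (0.14 to 0.75). Rrm2, a subunit of ribonucleotide reductase, was lower, at 6.29 CPM in SD and 2.38 in Aza-TdC.

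Germline genes, whose promoters are methylated in somatic tissue, were nearly silent in both libraries. Only 2 of 24 reached 50 UMIs. Sycp3, of the meiotic chromosome axis, was at 34.6 CPM in SD and 36.2 in Aza-TdC (log2 ratio 0.07, -0.03 to 0.17), and Brdt, a testis bromodomain gene, was at 8.18 and 10.9 (0.42, 0.22 to 0.61). Neither was past the line. Among imprinted genes, which are methylated on 1 parental copy, 3 of 16 measured were higher and 2 lower. The paternally expressed Peg3, a zinc finger gene, was at 14.9 CPM in SD, 94.7 in MASLD and 84.7 under Aza-TdC. Sgce, a sarcoglycan, was at 4.94, 15.5 and 17.7 CPM. The maternally expressed noncoding RNA Meg3, on chromosome 12 (GRCm38, 109541001 to 109571726), was lower, at 9.48 CPM in SD, 2.71 in MASLD and 0.826 under Aza-TdC, and its neighbour Rian stood at 0.98, 0.459 and 0.201 CPM. Meg3 also stood at 52.6 CPM in the 302 SD barcodes left out for markers of other cells and at 27.5 CPM in the 461 such Aza-TdC barcodes. The fetal genes H19 and Igf2 had 0 and 2 UMIs in SD and none in Aza-TdC, which with a floor of 3 counts allows no ratio.

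Methyl donor metabolism had no higher gene and 3 lower ones among 23. Nnmt, which spends the methyl donor S-adenosylmethionine on nicotinamide, had the lowest ratio of the named genes by its interval, -4.39 (-4.52 to -4.26), with 221 CPM in SD, 12.6 in MASLD and 10.5 under Aza-TdC. Both diet libraries lay far below SD. Gnmt, the glycine methyltransferase that buffers the same donor, was at 2485 CPM in SD, 831 in MASLD and 1177 under Aza-TdC. Gamt, of creatine synthesis, was at 33.6, 28.3 and 15.3 CPM, lowest in Aza-TdC.

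Interferon response genes were higher in Aza-TdC as a list. Of 24 measured genes 15 were higher, none was lower, and the median log2 ratio was 1.19 (0.88 to 1.73), against 8.53% higher and a median of 0.05 over all genes. The list held 31 genes, of which 29 are in the tables used here. The largest ratio on it was that of Zbp1, a sensor of Z-form nucleic acid, with 0.889 CPM in SD, 2.47 in MASLD and 17.8 under Aza-TdC, a log2 ratio of 4.32 (3.86 to 4.83). Gbp3, a guanylate-binding protein, stood at 0.615, 0.653 and 6.31 CPM (3.36, 2.79 to 3.98). Ifi44 stood at 0.547, 1.14 and 4.59 CPM (3.07, 2.46 to 3.74). Igtp, an immunity-related GTPase, stood at 5.67, 6.89 and 34.7 CPM (2.61, 2.42 to 2.81). In all 4 genes the Aza-TdC value lay above both other libraries with intervals that did not overlap. The log2 ratio of MASLD over SD was 0.09 (-0.74 to 0.91) for Gbp3 and 0.28 (0.03 to 0.53) for Igtp.

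Further members of the list were higher and others were not. Usp18, the protease that removes the ubiquitin-like ISG15, was at 5.04 CPM in SD, 10.6 in MASLD and 31.2 under Aza-TdC. Iigp1 and Irgm1, GTPases of the same family as Igtp, were at 69.9 and 8.61 CPM in SD against 232 and 19.9 in Aza-TdC. The transcription factor Irf1 was at 18.5 CPM in SD, 26.9 in MASLD and 40.7 under Aza-TdC. Stat2, Irf7 and Irf9, which act at interferon promoters, stayed within 2-fold, with log2 ratios of 0.26, 0.65 and 0.79. The sensors Ifih1 and Ddx58 had 0.49 and 0.50. Cxcl10, a chemokine, and Rsad2, an antiviral enzyme, were higher in MASLD than in Aza-TdC, at 3.70 against 1.39 CPM and 2.61 against 1.55 CPM, with 0.524 and 0.843 CPM in SD.

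Promoters of 4 members are shown because they carry the interferon-stimulated response element, a site bound by complexes that hold STAT2 and IRF9. The motif searched was GAAA, then any 2 bases, then GAAA again, on both strands with overlaps allowed, in RefSeq windows of 300 bases that run from 250 before to 50 after the gene's start. It was found in 14 of the 19 interferon genes that had a window (73.7%), in 3.06% of 10671 measured genes and in 3.49% of 27025 RefSeq genes. Each line below gives the 250 bases before the start, 5′ to 3′ on the gene's strand (GRCm38.p6), and the capitals mark the bases covered by a match on either strand. The windows are chr3:142559794-142560043 on the plus strand (Gbp3), chr11:58199306-58199555 on the plus strand (Igtp), chr5:120907526-120907775 on the minus strand (Oas1a) and chr4:156200819-156201068 on the minus strand (Isg15).
Gbp3: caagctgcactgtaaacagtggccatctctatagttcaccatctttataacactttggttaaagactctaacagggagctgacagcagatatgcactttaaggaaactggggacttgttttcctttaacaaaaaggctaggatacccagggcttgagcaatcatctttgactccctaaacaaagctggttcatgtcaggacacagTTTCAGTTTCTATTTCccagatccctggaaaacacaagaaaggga
Igtp: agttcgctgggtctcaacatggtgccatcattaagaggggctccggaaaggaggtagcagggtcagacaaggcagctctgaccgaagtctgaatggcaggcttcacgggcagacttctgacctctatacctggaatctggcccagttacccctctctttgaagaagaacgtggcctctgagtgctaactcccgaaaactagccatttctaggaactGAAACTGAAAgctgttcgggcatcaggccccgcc
Oas1a: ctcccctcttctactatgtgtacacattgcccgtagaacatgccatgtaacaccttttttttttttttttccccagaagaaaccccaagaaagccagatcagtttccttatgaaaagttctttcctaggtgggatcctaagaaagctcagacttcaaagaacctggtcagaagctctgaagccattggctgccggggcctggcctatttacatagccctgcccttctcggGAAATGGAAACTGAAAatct
Isg15: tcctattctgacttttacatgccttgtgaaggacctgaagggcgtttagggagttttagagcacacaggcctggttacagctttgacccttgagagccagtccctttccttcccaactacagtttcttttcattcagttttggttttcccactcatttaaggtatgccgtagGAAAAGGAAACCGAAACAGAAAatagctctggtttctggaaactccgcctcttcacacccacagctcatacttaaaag

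The matched stretch begins 45 bases before the start in Gbp3, 34 in Igtp, 20 in Oas1a and 78 in Isg15, and holds 2, 1, 2 and 3 overlapping matches. Gbp3 and Igtp had log2 ratios of 3.36 and 2.61. Oas1a, an antiviral oligoadenylate synthase, was at 0.273 CPM in SD, 0.314 in MASLD and 1.21 under Aza-TdC (2.14, 1.24 to 3.17). Isg15 was at 1.12, 2.44 and 3.06 CPM (1.46, 0.98 to 1.95). Members with a match also include Stat2 and Ifih1, which stayed within 2-fold, and Ifi44, at 3.07, has none in its window. A match is a string of letters and not a measured binding site.

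Antigen presentation genes showed the same direction with smaller ratios. Of 21 measured genes 8 were higher and none lower, with a median of 0.78 (0.11 to 1.30). Psmb9, a subunit of the immunoproteasome that cuts peptides for display, was at 2.76 CPM in SD, 10.6 in MASLD and 16.5 under Aza-TdC. Tap1, a subunit of the pump that carries these peptides into the endoplasmic reticulum, was at 8.09, 17.8 and 25 CPM. H2-Q6, a nonclassical class I molecule, was at 17.1, 22.4 and 56.5 CPM, and shares near-identical sequence with H2-Q4 and H2-Q7, so its reads may be divided among them. H2-K1, a classical class I heavy chain, was at 202, 268 and 389 CPM, a log2 ratio of 0.95. The class II regulator Ciita was at 0.98 and 1.01 CPM, a log2 ratio of 0.04 (-0.58 to 0.66). The interferon motif had a match in 3 of the 16 promoter windows of this list.

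Macrophage RNA moved in the same direction as these immune genes, and several of them stood at higher levels in the barcodes that were left out for markers of other cells. In the 461 such Aza-TdC barcodes, Gbp3 was at 51.6 CPM, Ifi44 at 24.7, Zbp1 at 30.3, Psmb9 at 53.2 and Tap1 at 67.8, while Igtp, at 28.6 CPM, was lower than in hepatocyte nuclei. With only nuclei that had 0 UMIs over all 14 macrophage markers (6408 in SD and 5435 in Aza-TdC), a limit added after seeing the data, the interferon list had 15 of 24 genes higher and a median of 1.13. The antigen presentation list then had 9 of 21 higher and a median of 0.96. Zbp1, Gbp3 and Igtp had log2 ratios of 4.33, 3.34 and 2.68 in those nuclei. At 34.6 CPM over the 14 markers and a median of 6766.5 UMIs, most Aza-TdC nuclei would hold no marker UMI by sampling alone. A nucleus with 0 such UMIs may therefore still hold macrophage RNA, and the part of that RNA in these lists was not tested. With every nucleus thinned to 1546 UMIs, 54.5% of SD and 75.8% of Aza-TdC hepatocyte nuclei held at least 1 UMI of the interferon list, and 6.16% and 22.0% held at least 3.

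**Figure D2:**
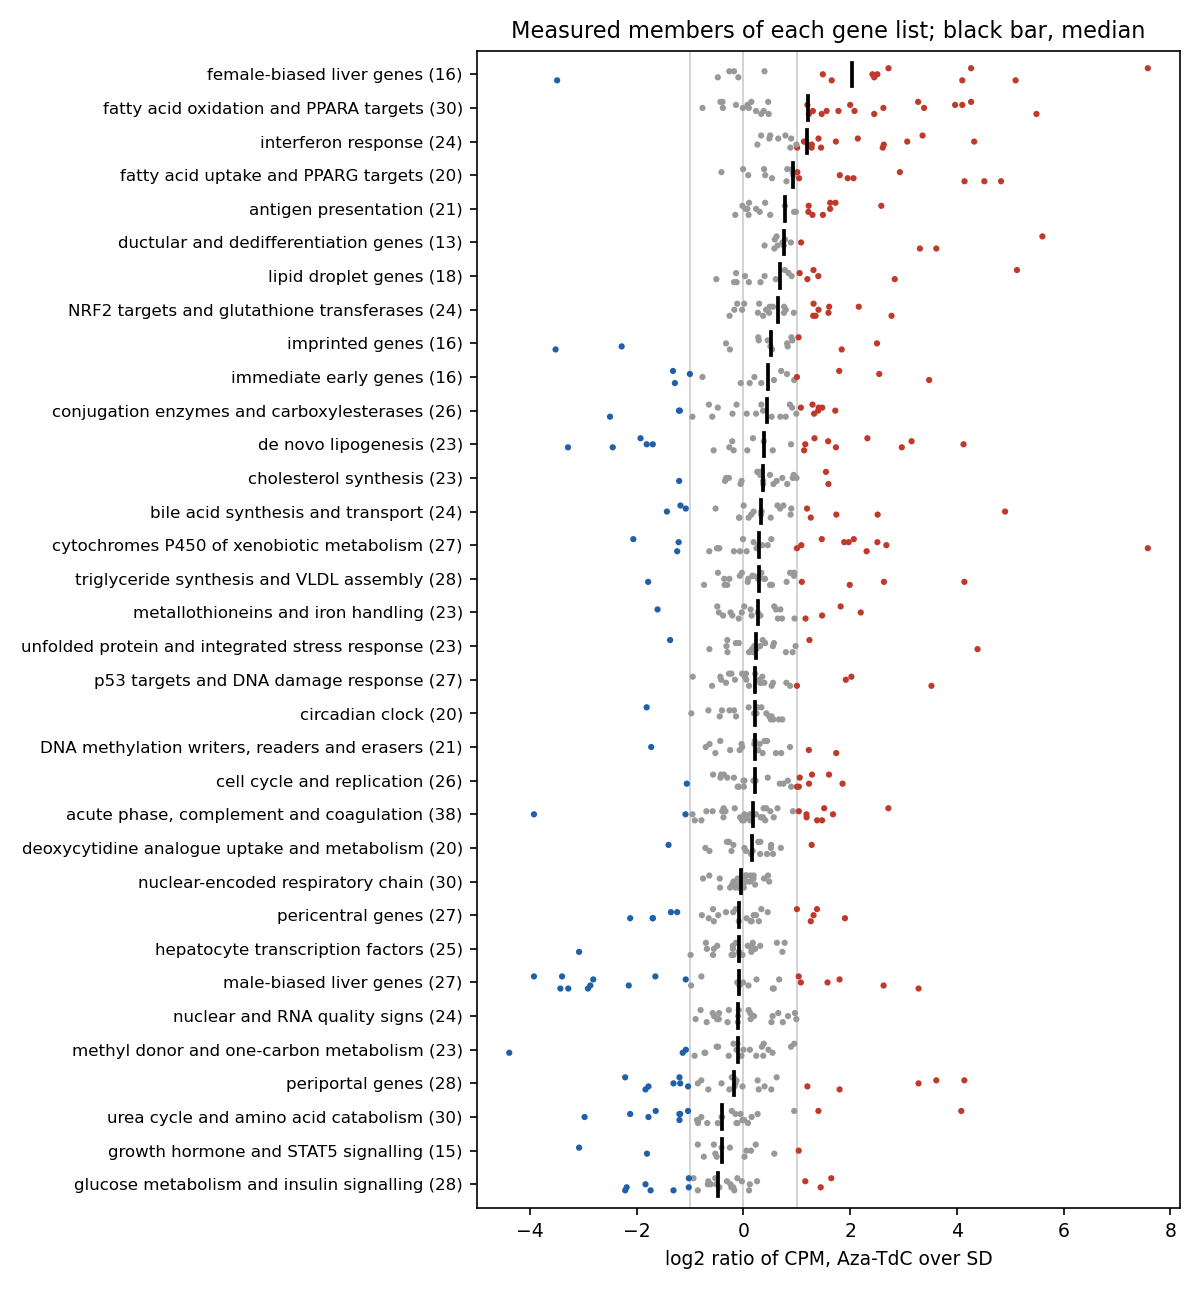
Each point is a measured gene of a list, with its log2 ratio of CPM in Aza-TdC over SD on the horizontal axis, and the black bar is the median of the list. Lists are ordered by their median and the number of measured genes is in brackets, for 34 lists with at least 5 measured genes. Red and blue points lie past the 2-fold lines, the female-biased list has the highest median (2.04) and the glucose list the lowest (-0.48).

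Genes of fat uptake and fat burning were higher in Aza-TdC. Among PPARG targets and genes that import fatty acids 9 of 20 were higher and none lower, with a median of 0.93 (0.54 to 1.95). Cd36, the fatty acid translocase, was at 9.07 CPM in SD, 342 in MASLD and 207 under Aza-TdC, a log2 ratio of 4.52 (4.37 to 4.66). Lpl, a lipase of the capillary wall that adult hepatocytes hardly make, was at 0.159, 6.26 and 4.53 CPM, and stood at 155 CPM in the left-out Aza-TdC barcodes. Fabp5, a fatty acid carrier, was at 0.547, 4.38 and 9.67 CPM, highest in Aza-TdC. The receptor Pparg itself was at 32.9 CPM in SD and 67.9 in Aza-TdC.

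The list of fatty acid oxidation and PPARA targets had 16 of 30 genes higher, none lower, and a median of 1.21 (0.24 to 2.00). The omega-hydroxylases that oxidize fatty acids from the methyl end had the largest ratios. Cyp4a14 was at 101 CPM in SD, 993 in MASLD and 1946 under Aza-TdC (4.27, 4.22 to 4.31), Cyp4a10 at 36.2, 301 and 622 CPM, and Cyp4a31 at 0.342, 9.19 and 15.4 CPM. All 3 were highest in Aza-TdC, and as near copies of each other they may share reads. Acaa1b, the peroxisomal thiolase, was at 939, 3398 and 3979 CPM. Pdk4, which spares glucose by blocking pyruvate oxidation, was at 2.37, 39.9 and 24.8 CPM, and the hormone Fgf21 at 2.73, 67.4 and 42.8 CPM (3.97, 3.70 to 4.25). The 14 genes that were not higher stayed within 2-fold. Among them, Cpt1a, the gate of mitochondrial fat entry, had a log2 ratio of 0.10, and Ppara itself 0.47. Per nucleus at 1546 UMIs, the list held a median of 15 UMIs in SD (10th to 90th percentile 10 to 22) and 25 in Aza-TdC (17 to 35).

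The receptor side of FGF21 did not follow its ligand. Klb, the co-receptor, was at 79.8 CPM in SD, 60.1 in MASLD and 55.6 under Aza-TdC, a log2 ratio of -0.52 (-0.59 to -0.45). Fgfr1 was at 2.69, 0.749 and 0.524 CPM, a log2 ratio of -2.36 (-3.03 to -1.74), and at 9.42 and 30.3 CPM in the left-out barcodes of SD and Aza-TdC.

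Lipid droplet genes were partly higher, 6 of 18 with none lower and a median of 0.69 (0.03 to 1.20). Pnpla3, a droplet lipase-like protein whose human form carries the best known risk variant of fatty liver, was at 3.53 CPM in SD, 35.8 in MASLD and 123 under Aza-TdC (5.13, 4.90 to 5.37). Cidec, which fuses droplets, was at 12.3, 215 and 87.9 CPM (2.84, 2.71 to 2.97). Its relative Cidea was at 0.41, 37.8 and 0.584 CPM, with 18 UMIs in SD and 29 in Aza-TdC, too few to be measured, and overlapping intervals for these 2 libraries. Of the droplet genes named here Cidea alone was high in MASLD and near its SD level in Aza-TdC. Plin2, the main coat protein of hepatocyte droplets, was at 146, 434 and 272 CPM (0.90), and the triglyceride lipase Pnpla2 at 19, 24.4 and 17.3 CPM (-0.14).

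Lipogenic genes split. Of 23, 9 were higher and 5 lower, with a median of 0.38 (-0.26 to 1.33). Desaturases and the elongases of polyunsaturated chains were higher. Scd1, the desaturase that makes oleate, was at 81.1 CPM in SD, 913 in MASLD and 635 under Aza-TdC (2.97, 2.92 to 3.02), and Elovl5 at 84.9, 551 and 755 CPM. Fads2, Fads1 and Elovl2 had log2 ratios of 1.59, 1.16 and 1.73, and the regulator Srebf1 1.14. The enzymes that feed carbon from sugar into fat were lower. Pklr, the liver pyruvate kinase, was at 631 CPM in SD, 200 in MASLD and 64.6 under Aza-TdC (-3.29, -3.34 to -3.23), lowest in Aza-TdC. Khk and Tkfc, of fructose breakdown, had log2 ratios of -1.70 and -2.45, Acly, which makes cytosolic acetyl-CoA, -1.81, and Elovl6, the elongase of saturated chains, -1.93. Fasn, the fatty acid synthase, was at 142, 72.7 and 96.5 CPM, a log2 ratio of -0.56 within the 2-fold line.

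Of triglyceride and VLDL genes 4 of 28 were higher and 1 was lower, against 8.53% and 4.15% over all genes. The list median was 0.29. Apoa4, an apolipoprotein of fat-laden liver, was at 11.2 CPM in SD, 488 in MASLD and 198 under Aza-TdC. The acyltransferases Gpat3 and Gpam, which start glycerolipid synthesis, were at 9.73 and 205 CPM in SD against 60.4 and 817 in Aza-TdC. The lipin Lpin1 was lower, at 2577 CPM in SD and 748 in Aza-TdC.

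Cholesterol synthesis genes mostly stayed within 2-fold, with 2 of 23 higher, 1 lower and a median of 0.37 (0.26 to 0.73). Over all genes 8.53% were higher and 4.15% lower. Insig1, which holds back SREBP processing, was at 56.2 CPM in SD, 134 in MASLD and 170 under Aza-TdC. Pmvk and Idi1, both enzymes of the mevalonate route, went opposite ways, with log2 ratios of 1.55 (1.37 to 1.72) and -1.20 (-1.38 to -1.02). In bile acid metabolism 5 of 24 genes were higher and 3 lower. Cyp7a1, the first and rate-limiting step from cholesterol to bile acids, was at 142, 254 and 340 CPM, and Cyp8b1, which sets the share of cholic acid, at 7.52, 52.7 and 43.0 CPM. Nr0b2 (SHP), the receptor that represses Cyp7a1, was at 44.0, 72.7 and 147 CPM. Abcc4, a pump that returns bile acids to blood, was at 1.75, 19.9 and 52.5 CPM (4.90, 4.58 to 5.25), and at 95.8 CPM in left-out Aza-TdC barcodes. The FXR receptor gene Nr1h4 had a log2 ratio of -0.08.

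Glucose genes were lower. On this list 3 of 28 were higher and 7 lower, a median of -0.48 (-0.85 to -0.17), against 4.15% lower over all genes. G6pc, the last step of glucose release, was at 1198 CPM in SD, 457 in MASLD and 258 under Aza-TdC (-2.22, -2.24 to -2.19). Fbp1, of gluconeogenesis, was at 997, 459 and 279 CPM, and Pygl, which breaks down glycogen, at 644, 146 and 141 CPM. Gys2, which builds glycogen, was also lower, at 462, 328 and 138 CPM. Pck1, the entry step of gluconeogenesis, was at 3152, 1648 and 1999 CPM (-0.66), within 2-fold. The insulin receptor Insr had a log2 ratio of 0.11 and its adaptor Irs2 -0.67.

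Urea cycle and amino acid genes were lower as well, 8 of 30 against 2 higher, with a median of -0.40 (-0.85 to -0.06). Ass1, the step that adds aspartate to citrulline, was at 1556 CPM in SD, 321 in MASLD and 453 under Aza-TdC (-1.78, -1.80 to -1.76). Got1, the cytosolic aspartate transaminase, was at 632, 118 and 80.3 CPM, and Oat, of ornithine breakdown, at 57.6, 33.9 and 13.2 CPM. Asns, which makes asparagine and is a known target of the amino acid stress response, was the exception, at 0.251, 0.87 and 4.25 CPM (4.08, 3.22 to 5.11). On the list of unfolded protein and integrated stress response genes 2 of 23 were higher and 1 was lower, with a median of 0.23. The shares over all genes were 8.53% and 4.15%. Nupr1, a stress-induced cofactor, was at 0.296, 8.29 and 6.21 CPM, and Ern1, a sensor of unfolded protein, at 449, 182 and 173 CPM.

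Drug-metabolizing genes were higher in part. Of 27 measured cytochromes P450, 10 were higher and 3 lower, with a median of 0.29 (-0.18 to 1.47). Cyp3a11, the main drug-clearing P450 of mouse liver, was at 108 CPM in SD, 269 in MASLD and 689 under Aza-TdC (2.68, 2.64 to 2.72), and Cyp2b9 at 31.0, 131 and 176 CPM. Cyp2b10, the usual target of the receptor CAR, went the other way, with a log2 ratio of -2.06, and Cyp1a2, a target of the aryl hydrocarbon receptor, with -1.24. Of 26 conjugation enzymes and carboxylesterases 7 were higher and 3 lower. Ces3b, a lipid droplet-associated esterase, was at 535, 211 and 94.5 CPM, and Ces2c at 5.08, 11.7 and 16.8 CPM. Near copies in these families may share reads. Among NRF2 targets and glutathione transferases 8 of 24 were higher and none lower (median 0.66, 0.30 to 1.32). Gclc, the rate-limiting enzyme of glutathione synthesis, was at 240, 537 and 1076 CPM, and G6pdx, which makes NADPH, at 1.48, 1.40 and 4.51 CPM, with SD and MASLD alike.

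In male mice pulses of growth hormone act through STAT5 to raise male-biased genes and to hold down Cux2, a repressor that marks female liver. Of 16 measured female-biased genes 10 were higher and 1 lower, with a median of 2.04 (-0.18 to 4.10), the highest of the 34 gene lists plotted. Cux2, on chromosome 5 (GRCm38, 121856366 to 122050102, minus strand), was at 1.66 CPM in SD, 0.169 in MASLD and 57.1 under Aza-TdC. Its log2 ratio was 5.10 (4.77 to 5.46) to SD, and the MASLD value lay below the SD value. At 1546 UMIs per nucleus, 0.322% of SD nuclei (0.202 to 0.487) and 8.45% of Aza-TdC nuclei (7.80 to 9.13) held a Cux2 UMI. Cyp2a4, a steroid hydroxylase, was at 0.114 CPM in SD (5 UMIs), 18.3 in MASLD and 21.8 under Aza-TdC (7.58, 6.35 to 9.21), with a near copy, Cyp2a5, that may share its reads. Slc22a26, an organic anion transporter, was at 0.41, 0.338 and 2.70 CPM. The list overlaps that of PPARA targets in Cyp4a14, Cyp4a10 and Acot3.

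Male-biased genes went both ways, 6 of 27 higher and 10 lower, with a median of -0.09 (-2.15 to 0.57). Hsd3b5, a steroid reductase of male liver, was at 20.2 CPM in SD, 1.02 in MASLD and 1.91 under Aza-TdC, and Selenbp2 at 14.3, 7.28 and 1.47 CPM. Egfr, the growth factor receptor, was at 6391, 1006 and 848 CPM. The antitrypsin gene Serpina1e was at 182, 15.5 and 11.9 CPM (-3.93, -4.05 to -3.81). Among major urinary proteins, Mup7 was at 5.81, 6.38 and 0.826 CPM and Mup1 at 1.91, 2.66 and 0.262 CPM, both low in Aza-TdC only of the 3 libraries. Mup20, a male pheromone, was at 158, 1210 and 473 CPM, and Mup3 at 504, 557 and 474 CPM. Mup genes are near-identical copies, so a single member's value is uncertain. Summed over the male-biased list, the median nucleus thinned to 1546 UMIs held 15 UMIs in SD (10th to 90th percentile 8 to 23) and 7 in Aza-TdC (3 to 11). Egfr alone carried this difference: the list summed to 9840 and 4548 CPM with it and to 3448 and 3700 CPM without it. For the female-biased list the medians were 2 (0 to 5) and 6 (2 to 11). Cyp4a14 and Cyp4a10, which are also PPARA targets, carried nearly all of this: the list summed to 1599 and 4061 CPM with them and to 1462 and 1494 CPM without them.

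Growth hormone signalling genes themselves differed less. Of 15, 1 was higher and 2 lower, with a median of -0.41 (-0.74 to 0.14). Onecut1 (HNF6), a liver transcription factor, was at 517 CPM in SD, 150 in MASLD and 61.2 under Aza-TdC (-3.08, -3.13 to -3.03). Cish, a feedback gene that STAT5 switches on, was at 22.4, 13.4 and 6.39 CPM. Bcl6, a repressor of STAT5 targets, was at 107, 118 and 219 CPM, a log2 ratio of 1.04 that falls under the line with other scalings. The receptor Ghr had a log2 ratio of -0.74, Stat5b -0.25 and the secreted Igf1 -0.85. Onecut1 was the only one of 25 hepatocyte transcription factors past the line. Foxa3 had a log2 ratio of -0.99 (-1.05 to -0.93), which passes the line with other scalings, and Prox1 0.77 (0.74 to 0.80).

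**Figure D3:**
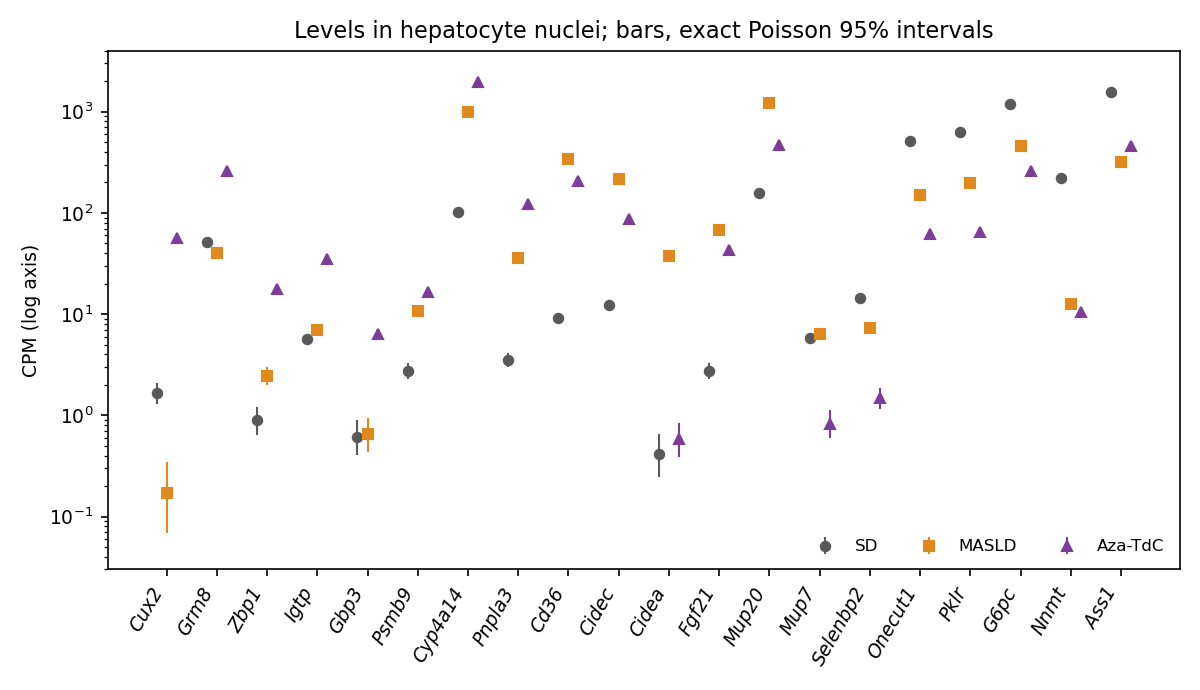
CPM in hepatocyte nuclei of SD (circles), MASLD (squares) and Aza-TdC (triangles) for 20 genes, on a log axis, with exact Poisson 95% intervals, most of which are smaller than the symbols. Cux2, Grm8, Zbp1, Igtp and Gbp3 are highest in Aza-TdC, Cidea is high in MASLD only (37.8 CPM), and Onecut1, Pklr and G6pc are highest in SD and lowest in Aza-TdC.

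Of 27 p53 and DNA damage genes 4 were higher and none lower, with a median of 0.22 (-0.16 to 0.53). Rad51b, a gene of homologous recombination, was at 72.5 CPM in SD, 802 in MASLD and 835 under Aza-TdC (3.52, 3.47 to 3.58). The stress hormone Gdf15 was at 6.27, 57.3 and 25.5 CPM, and Cdkn1a (p21), the cell cycle inhibitor, at 2.53, 10.5 and 9.57 CPM. Cdkn1a also stood at 97.0 CPM in left-out Aza-TdC barcodes. Against 8.53% higher and 4.15% lower over all genes, 7 of 26 cell cycle genes were higher and 1 lower. All were at low levels, such as Cdk1 at 0.57, 1.14 and 1.73 CPM and Mcm3, a subunit of the replicative helicase, at 0.843, 1.76 and 2.05 CPM. In both libraries about as many nuclei thinned to 1546 UMIs held a UMI of the list, 25.2% in SD and 25.3% in Aza-TdC.

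Acute phase, complement and coagulation genes were higher in 8 of 38 and lower in 2. The 3 fibrinogen chains were among the higher genes, with Fgg at 209 CPM in SD, 296 in MASLD and 670 under Aza-TdC, and Fga and Fgb at log2 ratios of 1.38 and 1.18. Apcs, serum amyloid P, was at 1.82, 17.5 and 12 CPM. Of 23 metal handling genes 4 were higher and 1 lower. The ferroxidase Cp was at 183, 586 and 839 CPM and Mt2, a metallothionein, at 36.8, 9.33 and 102 CPM, while Hamp2, a hepcidin gene, was at 18.1, 8.58 and 5.94 CPM. Of 16 immediate early genes, which also respond to handling of tissue, 4 were higher, led by Ier3 (0.365 and 4.07 CPM in SD and Aza-TdC) and Klf6 (2.14 and 12.5), and 3 were lower, Egr1, Nr4a1 and Dusp1. Among 20 clock genes only Noct was past the line, at 628, 182 and 179 CPM. The core activator Arntl was at 9.46, 5.97 and 15.7 CPM (0.73, 0.56 to 0.90).

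Genes of ductular or fetal character were scarce. Of 25 listed 13 were measured, 4 of them higher. Spp1, osteopontin, was at 0.114 CPM in SD (5 UMIs), 8.03 in MASLD and 1.13 under Aza-TdC. Ly6d, a surface protein, had 1 UMI in SD and 55 in Aza-TdC, at 1.11 CPM against 7.45 in MASLD. Cdh1, E-cadherin, which is also a periportal gene, was at 0.82, 5.90 and 10.1 CPM.

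The naming rule also took the 12 highest and 12 lowest genes, ranked by the interval bound nearest 0. Those among the highest not yet described were near silent in SD. Fut2, a fucosyltransferase of secreted glycans, had 3 UMIs in SD against 886 in Aza-TdC, at 17.8 CPM and 30.9 in MASLD (8.03, 6.48 to 10.31). The phospholipase relative Pnpla5 had 2 UMIs in SD and 391 in Aza-TdC (7.43, 5.57 to 10.48), and the basement membrane gene Tinag 1 and 207 (7.52, 5.02 to 12.83). Tmem86a, a lysoplasmalogenase, was at 0.251 CPM in SD, 15.6 in MASLD and 14.2 under Aza-TdC, and Ifi27l2b, a relative of the interferon gene Ifi27, at 0.342, 15.6 and 18.0 CPM. Rbfox1, a splicing factor best known from neurons, was at 4.22, 60.4 and 108 CPM, and at 188 and 304 CPM in left-out barcodes of SD and Aza-TdC. In nuclei with 0 UMIs over the 9 marker genes its log2 ratio was 6.97, against 4.68 in all hepatocyte nuclei.

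The lowest genes include several not yet described. Pdgfrl, a receptor-like protein, was at 245 CPM in SD, 21.3 in MASLD and 14.5 under Aza-TdC (-4.08, -4.19 to -3.97). The protocadherin Pcdh11x was at 72.2, 4.64 and 4.92 CPM, and the cell migration gene Srgap3 at 22.8, 1.40 and 1.41 CPM. Of the cyclic AMP genes, the phosphodiesterase Pde4b was at 78.5, 27.0 and 6.25 CPM and the cyclase Adcy2 at 4.12, 0.193 and 0.222 CPM. Sema3e, a guidance factor, was at 3.24, 0.169 and 0.181 CPM, the scaffold gene Dlgap3 at 2.39, 0.435 and 0.101 CPM, and Mup2 at 5.42, 1.38 and 0.302 CPM. Rapgef4os1 was at 18.1, 3.51 and 0.846 CPM, but it lies opposite Rapgef4, and the way strands were counted is not stated in the sources used here.

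Genes were also ranked by how far Aza-TdC lay from both other libraries in the same direction. Some of them differed between MASLD and SD as well, with MASLD over SD log2 ratios of 1.47 (0.93 to 2.04) for Zbp1 and -1.54 (-1.64 to -1.44) for Pde4b. The 8 highest were Grm8, Igtp, Zbp1, Gbp3, Cux2, Slc22a26, Gvin1 and Olfr56. Grm8, a metabotropic glutamate receptor on chromosome 6 (GRCm38, 27275119 to 28135178, minus strand), was at 51.1 CPM in SD, 40.3 in MASLD and 257 under Aza-TdC, and 6.46% of SD nuclei (5.89 to 7.07) and 25.5% of Aza-TdC nuclei (24.5 to 26.5) held a UMI at 1546 UMIs. Gvin1, a very large interferon-inducible GTPase, was at 1.73, 0.314 and 8.30 CPM, and at 65.0 CPM in left-out Aza-TdC barcodes. With 0 macrophage UMIs its log2 ratio was 2.34, against 2.26. Olfr56, named as an odorant receptor, was at 0.182, 0.145 and 1.39 CPM. Its annotated span holds the interferon-inducible GTPase gene Ifi47 on the same strand, so the reads cannot be given to either with certainty. Zbp1, Gbp3, Igtp and Gvin1 are thus interferon-inducible and Olfr56 overlaps such a gene, which was noticed after their values were seen. The share of such genes among all measured genes was not counted, so no excess is claimed. The 8 lowest were Mup7, Bcl11a, Mup1, Selenbp2, Mpped2, Tafa5, Pde4b and Mup12. Mpped2, a phosphodiesterase, was at 5.56, 7.86 and 1.11 CPM, and Tafa5, a secreted chemokine-like protein, at 9.50, 5.25 and 1.05 CPM. Bcl11a, a transcription factor, had only 51, 58 and 6 UMIs, and its log2 ratio of -3.27 became -0.93 in nuclei with 0 macrophage UMIs.

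**Figure D4:**
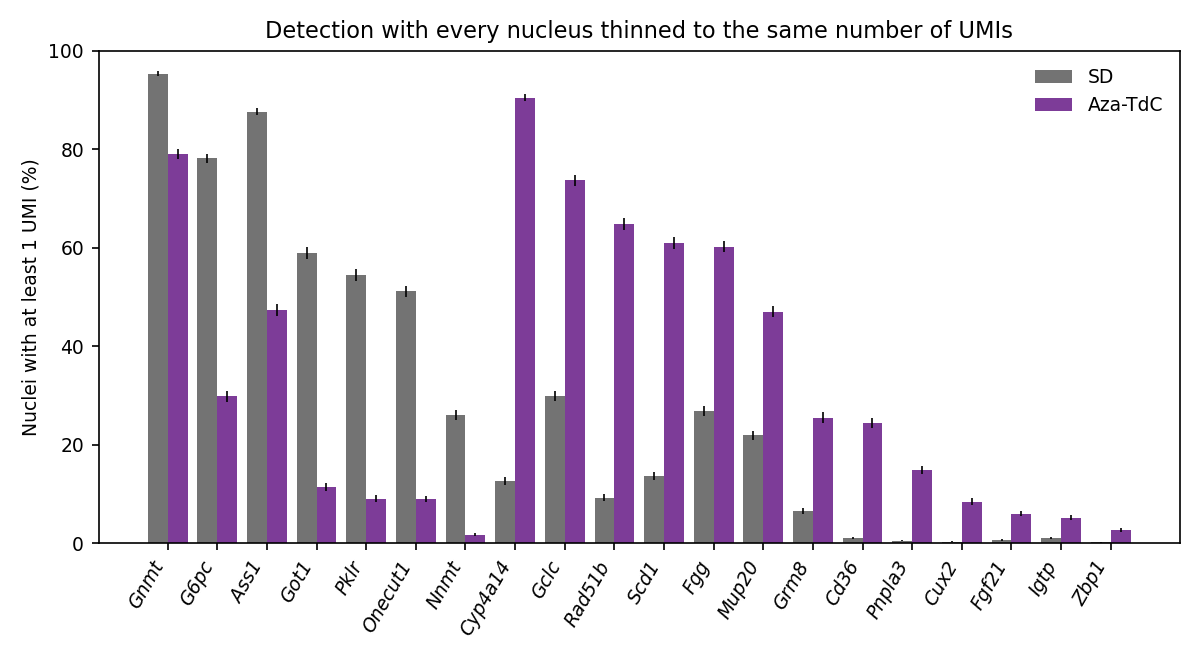
Share of hepatocyte nuclei with at least 1 UMI of a gene after every nucleus was thinned to 1546 UMIs, in SD (grey) and Aza-TdC (purple), with exact Clopper-Pearson 95% intervals. Genes lower in Aza-TdC, such as Ass1 (87.7% and 47.3%), are on the left, and higher ones, such as Cyp4a14 (12.6% and 90.4%), on the right.

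The differences were spread over nuclei to different degrees. With each nucleus thinned to 1546 UMIs, Cyp4a14 was found in 12.6% of SD nuclei (11.8 to 13.4) and 90.4% of Aza-TdC nuclei (89.7 to 91.1). Without thinning the shares were 32.4% and 99.2%, and a nucleus with no UMI may still hold the RNA. Rad51b went from 9.26% to 64.8%, Scd1 from 13.6% to 61.0% and Gclc from 29.9% to 73.7%. On the lower side Ass1 went from 87.7% to 47.3%, G6pc from 78.1% to 29.8%, Onecut1 from 51.1% to 8.95% and Nnmt from 26.0% to 1.72%. At this depth Zbp1 was found in 0.146% of SD and 2.73% of Aza-TdC nuclei and Igtp in 0.995% and 5.17%. Without thinning, Igtp was found in 3.22% and 19.5% of nuclei and Cux2 in 0.892% and 28.4%. Free RNA can add such UMIs to any nucleus, and its share was not measured. In the barcodes left out for markers of other cells, the level of Cyp4a14 was 90.3 CPM for SD and 690 CPM for Aza-TdC, and that of Ass1 was 1029 and 185 CPM.

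Position along the lobule was followed by ranking nuclei within each library on 8 pericentral against 8 periportal genes and taking the lowest and highest terciles, which are ranges and not cell types. Nuclei with fewer than 3 such UMIs were left out, 46 in SD and 60 in Aza-TdC. The pericentral marker Cyp2e1, used in the ranking, was at 124 and 1623 CPM in the periportal and pericentral terciles of SD and at 49.5 and 2273 CPM in those of Aza-TdC. Of 11864 genes measured in both terciles, 868 were higher in Aza-TdC in the periportal tercile and 684 in the pericentral one, 546 of them in both. Likewise 395 and 426 were lower, 256 of them in both. No gene was past the line in opposite directions. The 18 interferon genes measured at both ends had medians of 1.30 and 0.89 in the periportal and pericentral terciles, and the list of PPARA targets 1.37 and 1.18.

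Some genes had ratios of unlike size at the ends of the axis, most of them past the line at both. Cyp7a1 was at 36.2 CPM in SD and 19.8 in Aza-TdC in the periportal tercile (-0.87, -1.08 to -0.67), and at 236 and 894 CPM in the pericentral tercile (1.92, 1.87 to 1.98). Cyp3a11 had log2 ratios of 1.38 (1.27 to 1.49) and 3.23 (3.17 to 3.29). Pnpla3 leaned the other way, at 5.69 and 200 CPM in the periportal tercile (5.13, 4.81 to 5.47) and at 2.21 and 13.0 CPM in the pericentral one (2.56, 2.03 to 3.12). Cyp2b9 had 3.83 (3.61 to 4.06) and 1.63 (1.53 to 1.74), and Cd36 5.87 (5.40 to 6.38) and 3.84 (3.67 to 4.01). Ass1, a periportal gene, was lower at both ends, with -1.37 (-1.41 to -1.34) and -2.60 (-2.65 to -2.55). Zbp1, at 3.97 (3.27 to 4.77) and 4.32 (3.49 to 5.29), and Igtp, at 2.62 (2.30 to 2.95) and 2.97 (2.61 to 3.36), had intervals that overlapped between the ends. Because the libraries were ranked separately, equal terciles need not be equal positions in the tissue. The median pericentral share of ranking UMIs was 0.0526 in the periportal and 0.833 in the pericentral tercile of SD. In Aza-TdC these shares were 0 and 0.949, so its terciles lay further apart in this measure, which need not be distance in the lobule. Some ranking genes themselves differed between the libraries. Over all hepatocyte nuclei the periportal Ctsc had a log2 ratio of 3.28, and the pericentral Oat and Gulo -2.12 and -1.70. Cyp2f2, Cyp2e1 and Glul differed less, at 0.52, 0.19 and 0.15. Glul, a pericentral gene used in the ranking, had log2 ratios of -1.65 and 0.39 at the ends. How much the unlike terciles and the differing ranking genes add to the ratios of zoned genes such as Cyp7a1 was not tested.

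**Figure D5:**
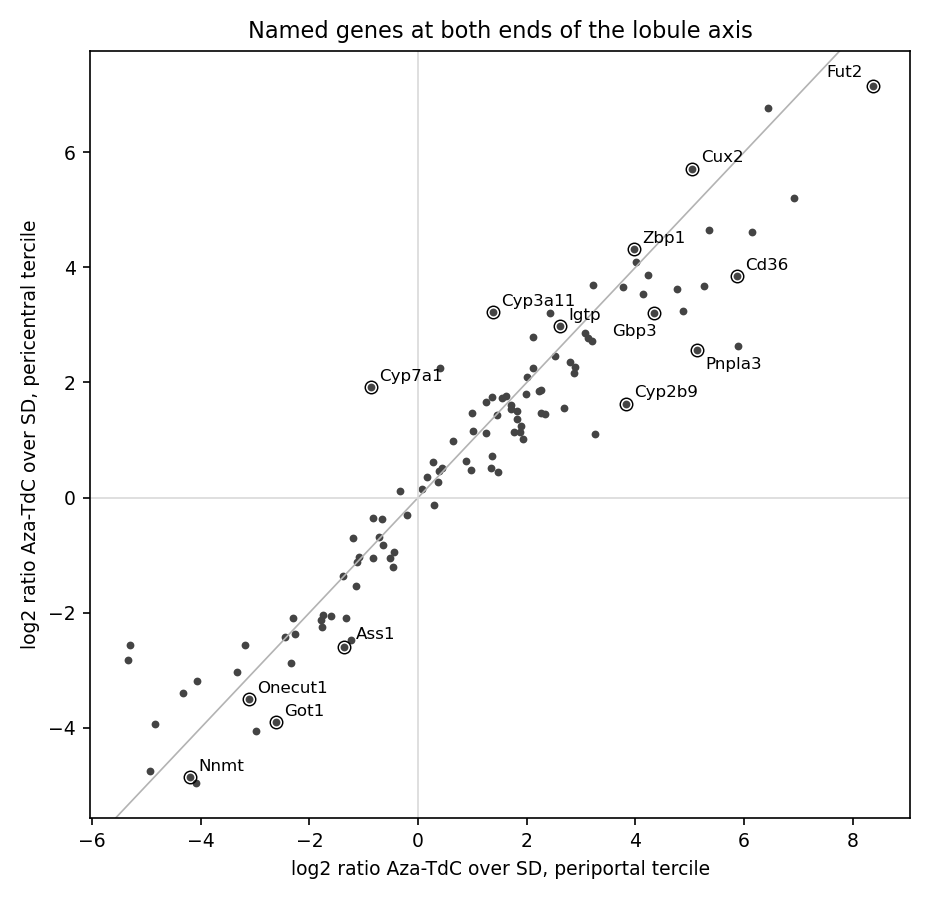
Each point is 1 of 110 named genes measured at both ends of the lobule axis, with a UMI in every tercile and not used to rank nuclei, with its log2 ratio of Aza-TdC over SD in the periportal tercile on the horizontal axis and in the pericentral tercile on the vertical axis. The grey diagonal marks equal ratios, Cyp7a1 lies far above it (-0.87 and 1.92) and Pnpla3 far below it (5.13 and 2.56).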

How the data were processed

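The deposited values are UMI counts per gene and nucleus, and per the file headers Cell Ranger 6.1.2 made them. The submitters' processing notes also list Seurat 4.4.0, its use unstated, and the builds mm10 and GRCm38. Which annotation was counted, whether introns and strands were, and whether doublets or free RNA had been removed is not stated in the sources used here. Groups were taken from the labels, with 1 library each, and no deposited column was left unmapped.

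Hepatocyte nuclei were chosen by UMIs, mitochondrial share and marker UMIs as the report states, which left 43888919 UMIs in SD and 49637517 in Aza-TdC. No doublet caller was run; leaving out the deepest 10% of nuclei stands in as an alternative. Counts were summed per library and scaled per 1000000 UMIs. Ratios have exact conditional binomial 95% intervals, levels exact Poisson intervals and shares exact Clopper-Pearson intervals, and intervals of list medians are order-statistic intervals over members. With 1 library a side there was no test, so the line was drawn at log2 ratios of 1 and -1 for genes with 50 UMIs or more in all.

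Members, 35 gene lists and 8 marker lists were chosen with earlier results of these data known. Genes are named if they were among the 12 highest or 12 lowest by the bound nearest 0, the 3 largest ratios of a list, the 8 highest or lowest in Aza-TdC against both other libraries, or on a fixed list of genes of interest; further list members were named after their values were seen. Unnamed transcripts, mitochondrial genes and the 9 marker genes were passed over, and coordinates are from a GRCm38 annotation that held 32158 of 32285 features. A few list members are counted in their lists but not reported here by name. Promoters are from RefSeq. The comparison of promoter CpG content was void, because only 76.7% of protein-coding genes past the line had a window. The statistics were tested on simulated data. Tables were made in Python 3.11.15 with pandas 2.3.3 and numpy 2.4.6, intervals with scipy 1.17.1, figures with matplotlib 3.10.9, and TMM factors in R 4.3.3 with edgeR 4.0.16.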

Additional observations from a re-analysis of the deposited data

How the results depend on the processing

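No paired analysis was possible because each group had 1 library. The counts of genes past the 2-fold line moved most with the number of UMIs at hand. With at least 200 UMIs over both libraries, 731 of 11760 measured genes were higher and 363 lower. With nuclei thinned to equal UMIs, 783 of 11628 were higher and 392 lower. Both settings measured fewer genes, but the shares past the line fell too. Higher genes made up 6.22% and 6.73% of measured genes in these 2 settings, against 8.53% in the main one. Lower genes made up 3.09% and 3.37%, against 4.15%. The other settings stayed within 1.5 times of 1209 and 589. Higher genes made up 67.2% of those past the line, and 63.1% with median-ratio and 63.0% with TMM scaling. All 374 list medians computed under the alternatives lay within the interval of the reported median. Such intervals over members can be wide, as with -0.18 to 4.10 for the female-biased list. TMM scaling shifted the median of all genes by only -0.06. Staying within the intervals therefore says little about how stable the medians are. No named gene changed direction while past the line, and 12 of 145 crossed the line under some setting (Bcl11a, Bcl6, Bhlhe41, Birc5, Chac1, Dnmt3b, Foxa3, Gadd45b, Gamt, Neat1, Tmsb4x and Uhrf1). Without thinning, 131 shares of SD nuclei and 141 of Aza-TdC nuclei with a UMI moved past their intervals, since deeper nuclei show more genes. With 5 instead of 3 zonation UMIs asked of a nucleus, the pericentral ratio of Rbfox1 went from 4.65 to 6.80. The planned 4-fold version of the promoter comparison was not run, because that comparison was void. Depth limits genes with few UMIs, and no interval covers differences between animals, which 1 library per group cannot show.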

Other observations

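Over the 20 chromosomes with measured genes, the share of genes higher in Aza-TdC ran from 5.72% on chromosome 18 to 12.4% on chromosome X, against 8.53% over all, and the share lower from 2.59% on chromosome X to 8.45% on chromosome 18, against 4.15%. By the length of the annotated gene, the share higher was 10.8% under 5 kb, 8.74% from 5 to 20 kb, 7.53% from 20 to 50 kb, 6.90% from 50 to 100 kb and 9.28% from 100 kb. The share lower in the same order was 5.00%, 3.58%, 3.11%, 3.08% and 7.85%. These are descriptions of 1 library per group, with no test.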
